A study of Mus musculus with 10 samples.

Results

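The insulin-like growth factor (IGF) family was examined in mammary gland RNA through 10 genes taken by symbol, the ligands *Igf1* and *Igf2*, the receptors *Igf1r* and *Igf2r*, and the binding proteins *Igfbp2* to *Igfbp7*, out of 46983 genes counted. All 10 symbols matched 1 Ensembl gene each, and all 10 passed the filter on low counts, with between 5 reads (*Igfbp2* in 1 library) and 26051 reads (*Igfbp5*) in a library. The libraries came from the right thoracic fat pads of virgin female C57BL/6 mice at PND 130, 1 library per mouse. CFA mice had eaten 1 mg FA/kg (folic acid) and HFA mice 5 mg FA/kg, and both groups had then eaten the same maintenance diet for 4 weeks, with 5 libraries per group. The libraries are called CFA 1 to CFA 5 and HFA 1 to HFA 5, and the labels give no allele, strain difference or agent other than the diet. P-values here measure the spread between mice.

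IGF1 and IGF2 are secreted peptides that bind the tyrosine kinase receptor IGF1R and activate the PI3K and AKT pathway through it, which promotes growth and survival of cells. IGF2R binds IGF2 without a kinase and carries it to lysosomes, where it is degraded. The binding proteins hold the ligands in blood and tissue fluid, lengthen their life and limit or deliver them to the receptor. In the mammary gland, IGF1 made in the stroma under growth hormone acts on the epithelium during ductal growth, and IGFBP5 is known for its part in involution.

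Each library held from 7672199 to 14829291 reads assigned to genes. The whole pad was sequenced, so fewer cells of a type and less RNA per cell cannot be told apart in any value below. HFA 5 stood apart, with a median correlation of 0.798 with the other libraries against 0.918 to 0.970 for each of the other 9. Its 7 B cell markers summed to 2630 CPM (counts relative to the TMM-scaled library size), those of CFA 2 and CFA 5 to 341 and 903 CPM, and those of the other 7 libraries to 3.54 to 5.25 CPM. Its 8 skeletal muscle markers summed to 712 CPM against 6932 to 54996 CPM in the others. Adipocyte (*Fabp4*), fibroblast (*Col3a1*), luminal (*Prlr*), basal (*Acta2*), endothelial (*Pecam1*), mural (*Rgs5*), brown fat (*Ucp1*), muscle (*Myh4*), B cell (*Ms4a1*), T cell (*Lck*), macrophage (*Csf1r*) and Schwann cell (*Pmp22*) lists were all detected, each named here with its most abundant marker. Within the luminal list, *Wap* had at most 1 read and *Csn2* was at 0 in at least 1 library. Of 5 genes listed as lymph node stroma markers, *Fcgbp* was counted in every library and *Ccl21a* was at 0 in all. *Fcgbp* was highest, at 1296 CPM, in CFA 1, where the B cell markers summed to 4.81 CPM, so it did not follow the lymphoid markers. *Glycam1*, *Madcam1* and *Cxcl13* were at 0 in at least 1 library and reached 733, 6.24 and 241 CPM. The mean log2 CPM of that list was 4.25 to 4.78 in CFA 2, CFA 5 and HFA 5, and 0.18 to 1.92 in the other 7 libraries. Markers of the labelled tissue were present in every library, beside muscle markers in all 10 and high B and T cell markers in 3.

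By the RNA level per length (RPKM, CPM per kilobase of exon), 5 of the 6 binding proteins led the family, and *Igfbp2* and *Igf1r* were lowest. The mean level over 10 libraries was 167 ± 70.1 RPKM (SD, n = 10) for *Igfbp5*, 146 ± 21.8 RPKM for *Igfbp7*, 66.4 ± 44.98 RPKM for *Igfbp6*, 46.5 ± 6.07 RPKM for *Igfbp4* and 31.5 ± 20.1 RPKM for *Igfbp3*. *Igf1* followed at 16.9 ± 4.51 RPKM, *Igf2r* at 14.8 ± 2.88 RPKM, *Igf2* at 4.4 ± 2.2 RPKM, *Igfbp2* at 2.10 ± 1.26 RPKM and *Igf1r* at 0.803 ± 0.241 RPKM. Neighbours in this order of mean log2 level were compared within libraries by an exact sign-flip permutation test, two-sided, adjusted over 9 pairs. *Igfbp7* lay above *Igfbp6* by 1.499 ± 1.11 (log2 RPKM difference, SD) and *Igf2r* above *Igf2* by 1.94 ± 0.86, each in 10 of 10 libraries (exact permutation p = 0.00195, the smallest the design allows, adjusted p = 0.00879). For the other 7 neighbouring pairs a difference beyond their spread was not shown, with adjusted p-values from 0.0557 to 0.961 in the same exact test. *Igfbp5* and *Igfbp7*, for example, differed by 0.019 ± 0.85 in log2 RPKM, with *Igfbp5* higher in 6 of 10 libraries.

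**Figure D1:**
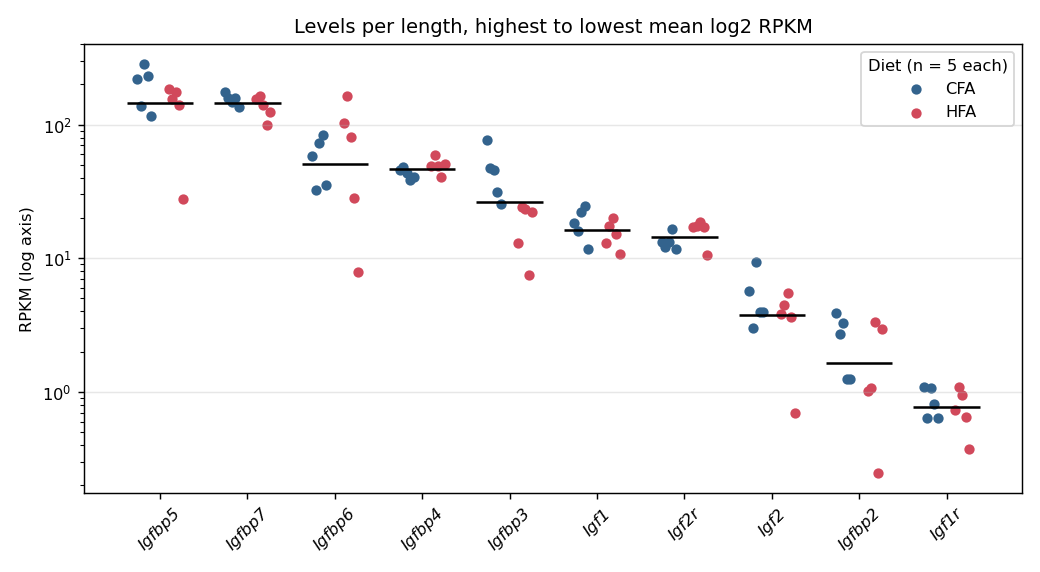
RNA level per length (RPKM, log axis) of the 10 IGF family genes in order of mean log2 RPKM, with points for the 5 CFA and 5 HFA libraries and a line at the mean of the log2 values. *Igfbp5* and *Igfbp7* lead with means of 167 and 146 RPKM, and *Igf1r* is lowest at 0.803 RPKM.

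Between the diets, 3 of the 10 genes had a positive and 7 a negative log2 fold change (HFA minus CFA), with a median of −0.23 against 0.064 over all 15610 genes tested. With edgeR's quasi-likelihood test, adjusted by Benjamini-Hochberg, 0 of the 10 genes differed at an adjusted p below 0.05, as did 0% of all genes tested. At an unadjusted p below 0.05, 1 of the 10, *Igfbp3*, was lower in HFA (3.49% of all genes tested), and 0 were higher (3.87%). *Igfbp3* was also the gene whose HFA libraries all lay below the CFA libraries, as 0.243% of all genes did, and 0 of the 10 had all HFA libraries above the CFA libraries (0.75%).

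**Figure D2:**
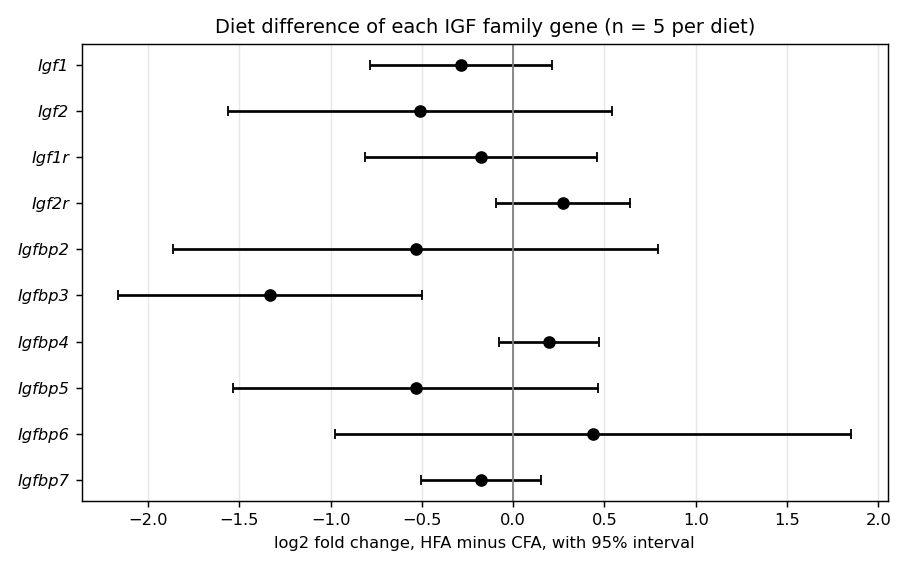
Log2 fold change (HFA minus CFA) of each IGF family gene on the horizontal axis, with points for the estimate and bars for its 95% interval from edgeR's quasi-likelihood fit. The interval of *Igfbp3* runs from −2.16 to −0.50 before any adjustment over genes, and the other 9 intervals include 0.

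*Igf1*, on chromosome 10 of GRCm38 from 87858265 to 87937042, encodes the ligand that growth hormone induces in liver and stroma. Its levels were 183, 159, 220, 244 and 116 CPM in CFA 1 to CFA 5, and 129, 171, 198, 150 and 107 CPM in HFA 1 to HFA 5. The lowest library of each diet was CFA 5 or HFA 5, and the diets overlapped over most of their range. The CFA mean was 184 ± 50.4 CPM and the HFA mean 151 ± 35.6 CPM (SD, n = 5 per group). HFA minus CFA was −0.29 on the log2 scale (SE 0.23, the error of the fitted value, adjusted p = 0.784, edgeR). It was −0.16 without CFA 4 and −0.0021 with epithelial markers as a covariate. In the other direction, it was −0.41 without CFA 5, −0.41 with adipocyte markers and −0.35 with B and T cell markers (unadjusted p = 0.0399, adjusted p = 0.319, edgeR). The sign was negative in all 28 alternatives.

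*Igf2*, on chromosome 7 from 142650766 to 142666816, encodes the fetal ligand and is expressed from the paternal copy. The CFA libraries held 32.3, 17.1, 53.2, 22.8 and 22.5 CPM, and the HFA libraries 22.03, 25.7, 31.4, 20.9 and 4.01 CPM. HFA 5 was below every other library, and 4 of 5 HFA libraries lay inside the CFA range. The log2 fold change was −0.51 (SE 0.48, adjusted p = 0.817, edgeR), −0.29 without HFA 5 and −0.23 without CFA 3, and with marker covariates it ran from −1.05 (adipocyte) to −0.025 (epithelial).

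Of the receptors, *Igf1r*, on chromosome 7 from 67952827 to 68233668, encodes the signalling receptor of both ligands. Its level was 10.6 to 18.3 CPM in CFA (median 13.7) and 6.30 to 18.1 CPM in HFA (median 12.2), with HFA 5 lowest, and the log2 fold change was −0.18 (SE 0.29, adjusted p = 0.903, edgeR). It was −0.045 without HFA 5 and −0.34 without HFA 2, and positive with a covariate of epithelial (0.20), fibroblast (0.039) or brown fat markers (0.084).

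*Igf2r*, on chromosome 17 from 12682406 to 12769664, encodes the receptor that clears IGF2 and is expressed mainly from the maternal copy. It had 124, 114, 124, 153 and 109 CPM in CFA 1 to CFA 5, and 159, 162, 175, 159 and 97.9 CPM in HFA 1 to HFA 5. The 4 HFA libraries other than HFA 5 lay above all CFA libraries, and HFA 5 lay below all of them. The log2 fold change was 0.27 (SE 0.17, adjusted p = 0.724, edgeR), and without HFA 5 it was 0.35 (adjusted p = 0.112). With limma voom's quality weights, which gave HFA 5 a weight of 0.100 against 0.442 to 2.63 for the others, it was 0.37 with an adjusted p of 0.0496, where 6.64% of all genes passed. It was smaller with the adipocyte (0.13, adjusted p = 0.575, edgeR) or the B and T cell covariate (0.19, adjusted p = 0.451, edgeR), larger with the epithelial covariate (0.46, adjusted p = 0.256, edgeR), and 0.19 to 0.36 with single libraries left out. The antisense gene *Airn* overlaps *Igf2r* and had 39 to 140 reads per library against 1035 to 2120 of *Igf2r*, and reads from the strands cannot be told apart where the strand setting is unknown.

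*Igfbp3*, on chromosome 11 from 7206086 to 7213923, encodes the main carrier of IGFs in blood, which also acts on cells directly. Its promoter and that of *Igfbp6* are shown because these genes had the smallest unadjusted p-values of the family, *Igfbp3* for the diet difference and *Igfbp6* for the diet by title digit interaction given below. The 250 bases before the start in the RefSeq table (GRCm38.p6) are printed 5′ to 3′ along the gene's strand, at chr11:7213924-7214173 (minus strand) for *Igfbp3* and chr15:102143936-102144185 (plus strand) for *Igfbp6*, with matches to TATAAA (or TTTATA on the other strand), TATATA or GGGCGG (or CCGCCC) in capitals.
Igfbp3: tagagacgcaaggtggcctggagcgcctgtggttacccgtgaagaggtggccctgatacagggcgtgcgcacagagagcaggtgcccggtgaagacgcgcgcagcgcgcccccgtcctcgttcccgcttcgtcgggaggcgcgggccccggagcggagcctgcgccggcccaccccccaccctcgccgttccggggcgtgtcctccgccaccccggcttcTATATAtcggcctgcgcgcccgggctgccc
Igfbp6: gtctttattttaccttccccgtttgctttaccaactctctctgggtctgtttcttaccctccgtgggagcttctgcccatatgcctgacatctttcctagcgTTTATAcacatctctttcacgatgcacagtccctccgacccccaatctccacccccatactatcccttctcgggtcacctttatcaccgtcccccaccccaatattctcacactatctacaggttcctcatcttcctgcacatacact
The *Igfbp3* stretch held 32 CG pairs and 73.2% G and C, with 1 match to TATATA, and the *Igfbp6* stretch 7 CG pairs and 49.6% G and C, with 1 match to the TATAAA letters. Over 32851 promoters of the same length, the median was 6 CG pairs, and 12.4% held TATAAA, 5.25% TATATA and 32.7% GGGCGG on either strand. A match is a description of letters and was not tested as a site. RefSeq promoters were found for all 10 genes, 14 in number, among them 4 starts of *Igf2*.

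The *Igfbp3* level was 239, 147, 144, 97.3 and 79.2 CPM in CFA 1 to CFA 5, and 40.4, 75.1, 72.8, 23.4 and 68.9 CPM in HFA 1 to HFA 5. The lowest CFA library (79.2 CPM) lay just above the highest HFA library (75.1 CPM), and each diet spread over more than that gap. The CFA mean was 141 ± 62.1 CPM and the HFA mean 56.1 ± 23.0 CPM (SD, n = 5 per group). HFA minus CFA gave −1.33 on the log2 scale (SE 0.37, 95% interval −2.16 to −0.50), an HFA level 0.397 times that of CFA, with an unadjusted p of 0.00489 and an adjusted p of 0.648 by edgeR's quasi-likelihood test, so it did not pass over all genes. The value was −1.64 (adjusted p = 0.0359) with the quality weights of limma voom, where it passed, as did 6.64% of all genes. Those weights gave HFA 5 only 0.100. Over all alternatives it lay between −1.64 and −0.90, with adjusted p-values from 0.0359 to 0.999. Leaving out single libraries gave −1.48 to −1.10, with adjusted p-values from 0.0969 (without HFA 5) to 0.999. The labels do not explain the second digit of the sample titles. Where it is 2, CFA had 147 to 239 CPM (2 libraries) and HFA 40.4 to 75.1 CPM (3 libraries). Where it is 3, CFA had 79.2 to 144 CPM (3 libraries) and HFA 23.4 to 68.9 CPM (2 libraries).

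Several marker lists had one direction between the diets beside *Igfbp3*. All 5 brown fat markers had a higher estimate in HFA, 3 at an unadjusted p below 0.05, with sums of 69.8 to 597 CPM in CFA and 144 to 1823 CPM in HFA. All 7 basal markers had a lower estimate in HFA, 1 at an unadjusted p below 0.05, with sums of 516 to 2063 CPM in CFA and 194 to 1251 CPM in HFA. Every tested marker of the adipocyte (7), skeletal muscle (8), T cell (7), macrophage (6) and B cell (3) lists had a higher estimate in HFA, 0 of them at an unadjusted p below 0.05. The T cell sums were 12.9 to 417 CPM in CFA, 7.41 to 11.2 CPM in 4 HFA libraries and 993 CPM in HFA 5. B cell sums were 3.54 to 903 CPM in CFA, 4.49 to 5.25 CPM in 4 HFA libraries and 2630 CPM in HFA 5. The higher T and B cell estimates thus rest on HFA 5. Of the Schwann cell markers 4 were higher and 1 lower, 3 at an unadjusted p below 0.05, with sums of 298 to 372 CPM in CFA, 416 to 570 CPM in 4 HFA libraries and 184 CPM in HFA 5. *Fcgbp* was lower in HFA, with no overlap of the diets and a log2 fold change of −1.46 (SE 0.42, unadjusted p = 0.00545, adjusted p = 0.648, edgeR). Of the 3 tested genes of its list, lymph node stroma, 1 was higher and 2 were lower, so the list had no single direction. With brown fat markers as a covariate the log2 fold change of *Igfbp3* was −0.90 (edgeR, unadjusted p = 0.0526), with luminal and basal markers −1.15 (unadjusted p = 0.0339), and with fibroblast markers −1.19 (unadjusted p = 0.0144). With B and T cell markers it was −1.33 (unadjusted p = 0.00527) and with adipocyte markers −1.29 (unadjusted p = 0.00704). With skeletal muscle markers it was −1.32 (unadjusted p = 0.00498), and in the 7 libraries with few B cell markers −1.60 (unadjusted p = 0.00443), all by edgeR. The part of these cell types in the difference was not tested beyond those values.

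*Igfbp5*, on chromosome 1 from 72857932 to 72874884, was the member with the most reads. It had 1325, 828, 1693, 1385 and 696 CPM in the CFA libraries, and 1108, 931, 1053, 838 and 166 CPM in the HFA libraries. HFA 5 was far below the rest, and 4 of 5 HFA libraries lay inside the CFA range. The log2 fold change was −0.53 (SE 0.45, adjusted p = 0.796, edgeR), −0.31 without HFA 5, −1.13 with adipocyte markers as a covariate and 0.052 with epithelial markers.

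*Igfbp6*, on chromosome 15 from 102144362 to 102149511, encodes a binding protein that prefers IGF2. Its level was 64.3, 36.2, 80.7, 93.0 and 39.1 CPM in CFA 1 to CFA 5, and 115, 181, 89.3, 31.2 and 8.78 CPM in HFA 1 to HFA 5. The 2 highest and the 2 lowest libraries were all HFA. The spread across all 10 libraries, an SD of 1.23 on the log2 scale, was higher than that of 93.9% of genes tested. The log2 fold change between the diets was 0.44 (SE 0.64, adjusted p = 0.887, edgeR), and it was negative with the second title digit added (−0.23), in a limma voom fit (−0.11), with the B and T cell (−0.14), adipocyte (−0.23) or skeletal muscle covariate (−0.0061), and without HFA 2 (−0.042). The value kept its sign in 21 of 28 alternatives. It was 0.62 with the fibroblast covariate (unadjusted p = 0.0494, adjusted p = 0.529, edgeR) and 0.98 with the epithelial covariate (unadjusted p = 0.0780, adjusted p = 0.334, edgeR). Within the digit 2, all 3 HFA libraries (89.3 to 181 CPM) lay above both CFA libraries (36.2 to 64.3 CPM). Within the digit 3, both HFA libraries (8.78 to 31.2 CPM) lay below all 3 CFA libraries (39.1 to 93.0 CPM). The diet effect in the digit 3 minus that in the digit 2 was −3.18 (log2, SE 0.86, unadjusted p = 0.00553, adjusted p = 0.568, edgeR's interaction term), and 1 of the 10 genes and 8.46% of all genes tested had an unadjusted p below 0.05, with 0% past the adjusted threshold. *Igfbp6* is in a gene list that the study drew from these same libraries, so its values are not independent evidence.

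**Figure D3:**
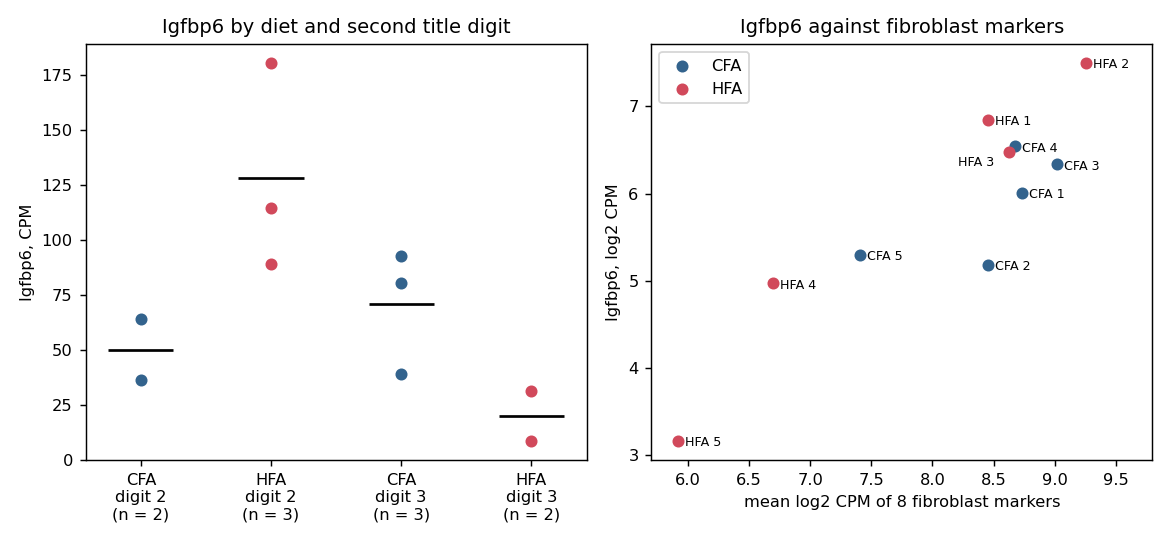
*Igfbp6* by diet and second title digit (left, CPM, line at the mean) and against the mean log2 CPM of 8 fibroblast markers (right), 1 point per library. HFA libraries lie above CFA libraries for the digit 2 and below them for the digit 3, and HFA 4 and HFA 5 are lowest on both axes of the right panel.

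The other binding proteins varied less, apart from *Igfbp2*. *Igfbp2*, on chromosome 1 from 72824503 to 72852474, had 2.31 to 7.21 CPM in CFA and 0.457 to 6.10 CPM in HFA, with 5 to 105 reads per library, and a log2 fold change of −0.53 (SE 0.60, adjusted p = 0.851, edgeR). This was −0.25 without HFA 4, −0.36 without CFA 1, −0.88 without HFA 3, −0.90 without HFA 5 and −1.23 with the quality weights (adjusted p = 0.149, limma voom). *Igfbp4*, on chromosome 11 from 99041244 to 99054392 and cleaved by the protease PAPPA, had 170 to 213 CPM in CFA and 179 to 260 CPM in HFA. Its log2 fold change of 0.20 (SE 0.12, adjusted p = 0.734, edgeR) was positive in all alternatives, from 0.13 (without HFA 2) to 0.31 (brown fat covariate). *Igfbp7*, on chromosome 5 from 77349240 to 77408041, a distant relative with low affinity for IGFs, had 163 to 210 CPM in CFA and 121 to 199 CPM in HFA and a log2 fold change of −0.18 (SE 0.15, adjusted p = 0.794, edgeR). It was −0.081 without HFA 4, and −0.025, −0.056 and −0.082 with the brown fat, epithelial and fibroblast covariates. The SD of log2 CPM across all libraries was above that of 12.9% of genes tested for *Igfbp4* and 23.1% for *Igfbp7*, against 87.8% for *Igfbp5*, 88.6% for *Igfbp3* and 92.0% for *Igfbp2*. *Igfbp7* overlaps *Polr2b* on the opposite strand, which had 469 to 1343 reads per library.

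**Figure D4:**
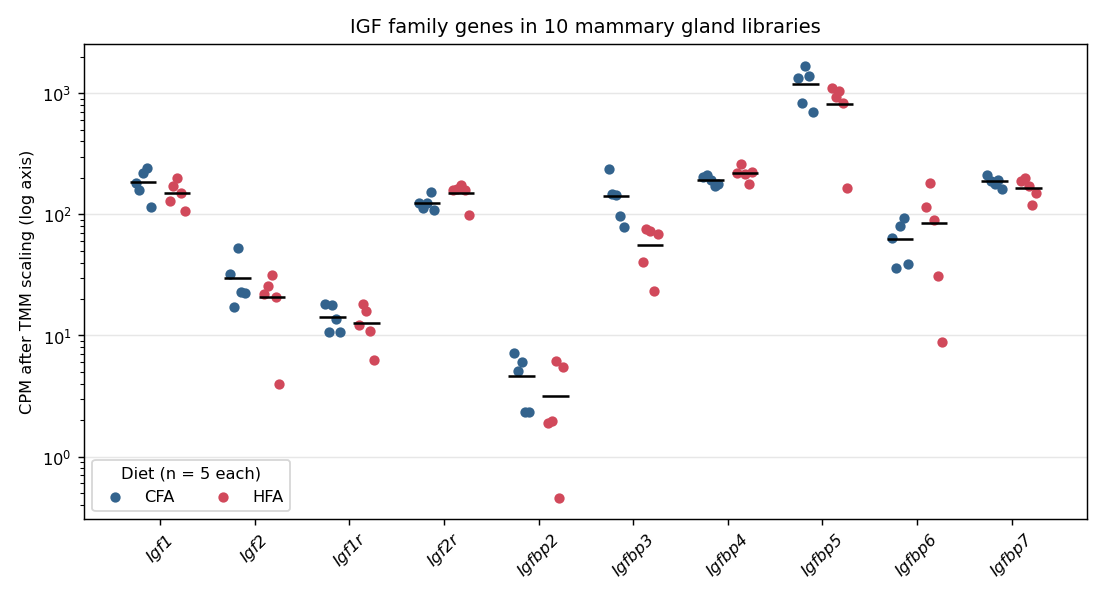
Level of the 10 genes (CPM after TMM scaling, log axis) in the 5 CFA and 5 HFA libraries, with 1 point per library and a line at each mean. The *Igfbp3* points of the diets do not overlap (79.2 to 239 CPM in CFA, 23.4 to 75.1 CPM in HFA), and those of the other genes do.

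With the second title digit in the fit beside diet, all 10 genes had a lower estimate in the digit 3 than in the digit 2, *Igfbp7* with −0.31 (SE 0.12, unadjusted p = 0.0307, adjusted p = 0.681, edgeR) and *Igfbp3* with −0.65 (unadjusted p = 0.0780). This was 1 of 10 at an unadjusted p below 0.05, against 5.69% of all genes tested, and 0% passed after adjustment. Over all 15610 genes tested, the median digit estimate in the fit of all libraries was 0.064. Without HFA 5, 4 of the 10 estimates were positive and 6 negative, and without CFA 5, 1 was positive and 9 negative.

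The 6 binding protein genes summed to 353 to 596 RPKM in CFA and 235 to 566 RPKM in HFA. *Igfbp5* and *Igfbp7* made up the largest parts in the libraries other than HFA 2, where *Igfbp6* was at 28.7%, and HFA 5, with *Igfbp5* at 32.4% to 47.3% in CFA and 11.7% to 44.2% in HFA. *Igfbp3* was 13.2%, 11.1%, 7.70%, 5.71% and 7.17% of the sum in CFA 1 to CFA 5, and 2.55%, 4.24%, 4.93%, 2.37% and 9.35% in HFA 1 to HFA 5. In this share HFA 5, whose sum of 235 RPKM was the lowest, lay inside the CFA range, and the other 4 HFA libraries lay below all CFA libraries.

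**Figure D5:**
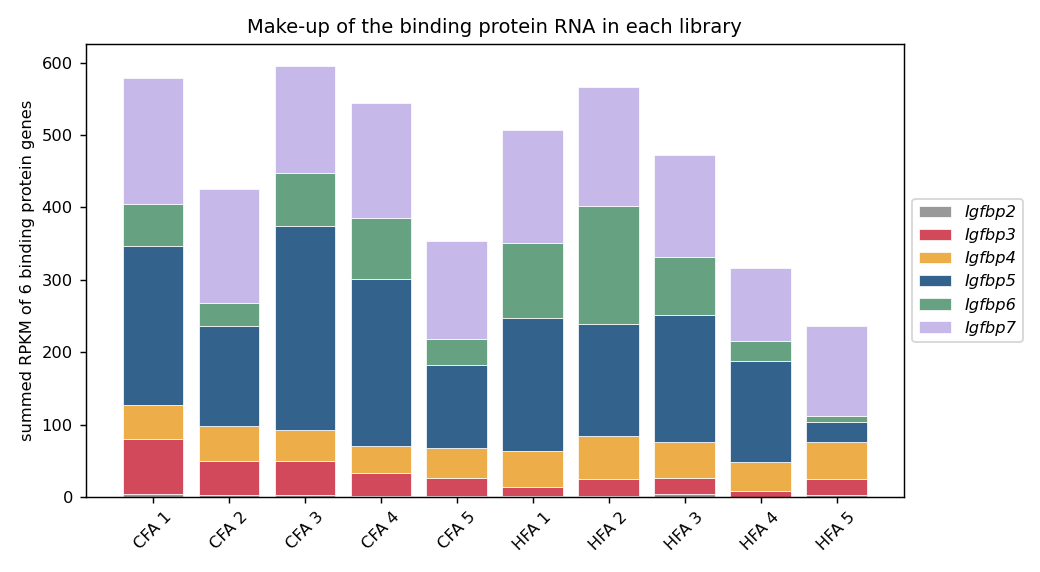
Summed RPKM of the 6 binding protein genes in each library, 1 bar per library from 0, split by gene. HFA 5 has the lowest sum, 235 RPKM, with 11.7% *Igfbp5*, and CFA 3 the highest, 596 RPKM, with 47.3%.

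Among 62 other genes of the pathway, 57 were tested and 0 passed the adjusted threshold by edgeR's quasi-likelihood test, with 39 higher and 18 lower, where 9372 of all genes tested were higher and 6238 lower, and a median log2 fold change of 0.089 (0.064 over all genes). At an unadjusted p below 0.05 there were 2 higher (3.87% of all genes tested) and 2 lower (3.49%), a share near that of all genes. The diets overlapped for each of the 57, where 0.243% of all genes had every HFA library below and 0.75% above the CFA libraries. Of the receptor and docking genes, 8 were higher and 1 lower, and *Insr*, the insulin receptor and most abundant, had a log2 fold change of 0.25 (adjusted p = 0.768). Of 20 PI3K, AKT and mTOR genes 13 were higher and 7 lower, with *Tsc1*, an inhibitor of mTOR complex 1, at 0.34 (unadjusted p = 0.0174, adjusted p = 0.655) and the most abundant, *Pik3r1*, at −0.30 (adjusted p = 0.744). In the growth hormone axis, 6 were higher and 1 lower, with *Stat5b*, the transcription factor that induces *Igf1*, at 0.39 (unadjusted p = 0.0475, adjusted p = 0.670) and the receptor gene *Ghr* at 0.0046 (adjusted p = 0.998).
Of the carriers and proteases 5 were higher and 3 lower, and *Pappa*, whose protease releases IGFs from IGFBP4, stood at −1.89 (unadjusted p = 0.0310, adjusted p = 0.656), with 12.2 ± 10.2 CPM in CFA and 3.33 ± 2.77 CPM in HFA (SD, n = 5 per group). *Ctsd*, the lysosomal protease cathepsin D and most abundant there, stood at −0.21 (adjusted p = 0.847). Of the genes tied to *Igf2* imprinting and mRNA, 4 were higher and 3 lower, with *H19*, the noncoding neighbour of *Igf2*, at 0.85 (adjusted p = 0.800). Of the CCN and related genes, 3 were higher and 3 lower, with *Ccn4* at −1.93 (unadjusted p = 0.00429, adjusted p = 0.648) and the most abundant, *Ccn2*, at 0.52 (adjusted p = 0.762). These p-values are all by edgeR.

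The levels of the 10 genes were related to the mean log2 CPM of 11 marker lists across libraries, 110 pairs in all, and 7 pairs passed an adjusted p of 0.05 for Pearson's r by a two-sided permutation test. *Igf2r* followed the adipocyte markers with r = 0.931 and rho = 0.806 (permutation p = 0.00039 and 0.00699, adjusted 0.00858 and 0.123, n = 10), and r was 0.861 without the 2 libraries farthest from the median. With the Schwann cell markers it had r = 0.869 and rho = 0.952 (permutation p = 0.00014 and 0.00013, adjusted 0.00697 and 0.0143), and 0.908 without the 2 farthest. *Igf1r* followed the fibroblast markers with r = 0.884 and rho = 0.867 (permutation p = 0.00019 and 0.0021, adjusted 0.00697 and 0.077), and 0.777 without the 2 farthest. *Igfbp6* followed the same list with r = 0.897 and rho = 0.697 (permutation p = 0.00031 and 0.0306, adjusted 0.00853 and 0.168), and 0.699 without the 2 farthest.
*Igf1r* with basal markers (r = 0.856, rho = 0.624, permutation p = 0.00315 and 0.0605, adjusted 0.0495 and 0.256) and *Igf2r* with muscle markers (r = 0.760, rho = 0.794, permutation p = 0.00225 and 0.00883, adjusted 0.0413 and 0.123) stood at 0.554 and 0.590 without the 2 farthest (permutation p = 0.157 and 0.126, exact over 8 libraries), so these relations rest on those libraries. *Igf2r* with T cell markers had r = −0.886 and rho = −0.903 (permutation p = 3e-05 and 0.00089, adjusted 0.0033 and 0.049), and −0.766 without the 2 farthest. This list has 7 low and 3 high libraries with a gap of 48.6% of its range, and over the 7 low libraries r was −0.822 and rho −0.714 (exact permutation p = 0.0312 and 0.0881, n = 7). The gap between HFA 5, the lowest library, and the next library was 49.9% of the range for muscle and 48.9% for Schwann cell markers. The permutations pooled both diets, so a shift of both values between the diets also enters r and p. Within a diet, 5 libraries were too few for a correlation. With the 2 farthest libraries left out of each pair, 0 of the 110 pairs passed the adjusted threshold. The lists share depth and composition of the same libraries, and no pair of *Igfbp3* passed, with r = −0.704 and rho = −0.733 for brown fat (permutation p = 0.0221 and 0.0205, adjusted 0.11 and 0.153, n = 10, r = −0.701 without the 2 farthest).

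Among 12560 other genes of at least moderate abundance, those most like each member by Pearson's r of log2 CPM over 10 libraries differed between members. For *Igfbp3* they were *Emid1* (0.967), *Fbn2* (0.963) and *Sfn* (0.943), with r between 0.948 and 0.966 without HFA 5. For *Igfbp5* they were *Jag2* (0.990), *Ptprg* (0.982) and *Gnai1* (0.980), with 0.885 to 0.948 without HFA 5. For *Igfbp6* they were *Steap3* (0.991), *Ecm1* (0.987) and *Clec3b* (0.987), and for *Igf2r* *Nbr1* (0.979), *Cul9* (0.9755) and *Kiz* (0.974). The nearest gene was *Tm7sf3* for *Igf1* (0.925), *Gnai1* for *Igf2* (0.959, and 0.803 without HFA 5), *Vcl* for *Igf1r* (0.962), *Utp14b* for *Igfbp2* (0.958), *Tpcn2* for *Igfbp4* (0.934) and *Tmem119* for *Igfbp7* (0.951). These values were chosen as the highest of many and carry no test.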

How the data were processed

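Mammary gland RNA of 5 CFA and 5 HFA mice was sequenced by the authors from unfractionated fat pads with the TruSeq RNA v2 kit. Reads were aligned by the authors with TopHat2 2.0.14 and Bowtie2 2.2.5 to GRCm38 and counted on Ensembl genes with HTSeq 0.6.1, and the deposited values are whole-number counts for 46983 genes without normalization, with 5 summary lines that were left out of library sizes. Of the lines counted, 3.43% to 5.47% fell on no gene and 28.8% to 33.9% had several alignments. Strand setting and counting mode are not given in the sources used here. The authors left out 1 HFA sample for poor reads and 1 outlier, and their model held cage, which the labels do not give.

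Symbols and positions came from GENCODE M21 (46488 genes matched). Genes were filtered by filterByExpr, scaled by TMM and tested in R 4.3.3 with edgeR 4.0.16 (quasi-likelihood, HFA against CFA, threshold 0.05), with SEs taken as the log2 fold change over the root of F. DESeq2 1.42.0 and limma 3.58.1 were alternatives. RPKM used the union of annotated exons. log2 CPM had a prior count of 2. Correlations used 100000 permutations, or all orders below 10 libraries. Lists with a gap wider than 50% of their range were given no correlation, and *Igf2* and *Igfbp5* were then used without HFA 5. The tests were checked on simulated counts. Alternatives were other scalings, filters and tests, the second title digit, a replicate block, marker covariates and each library left out. The members and lists were chosen with earlier results of these data known. Named are the 10 members, per pathway list the most abundant gene and those at an unadjusted p below 0.05, the genes most like each member (average log2 CPM of at least 2), and in each marker list the most abundant gene. *Airn*, *Polr2b*, *Wap*, *Csn2* and the other lymph node stroma markers were named after their values were seen.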

Additional observations from a re-analysis of the deposited data

Results flagged for a closer look

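In HFA 5, *Igf2r* had 97.9 CPM, a value whose gap to the nearest HFA library was 0.796 of the group's range, and *Igfbp5* had 166 CPM, with a gap of 0.713 of the range. Both exceed Dixon's 95% limit of 0.71 for groups of 5, in 20 groups examined, of which chance gives about 1 in 20. HFA 5 is the library with the most B cell markers and the fewest muscle markers, and their part in these values was not tested.

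For *Igfbp6*, the diet difference within the second title digit 3 minus that within the digit 2 was −3.18 on the log2 scale, with all HFA libraries above the CFA libraries in one digit and below them in the other. The interaction had an adjusted p of 0.568 by edgeR's quasi-likelihood test, so a difference between the digits did not pass.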

How the results depend on the processing

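Depth limits *Igfbp2* most, with as few as 5 reads in a library. Over all genes, DESeq2 passed 60, the likelihood ratio test 33 and limma voom with quality weights 1037, and the counts were 2, 1 and 1 with the B and T cell, epithelial and adipocyte covariates, and 0 to 6 with single libraries left out, 6 of them without HFA 5. In the 7 libraries with B cell markers summing to below 100 CPM, chosen after seeing the data as were the fibroblast, brown fat and muscle covariates, 469 passed. Of the 10 members 0 passed in these fits and with single libraries left out, except 2 with quality weights, *Igfbp3* (lower) and *Igf2r* (higher). Of the other pathway genes 4 passed with quality weights (*Ccn4*, *Stat5b*, *Tsc1*, *Tsc2*) and 1 in the 7 libraries (*Ccn4*). In the interaction with the second title digit, 1 member passed by DESeq2 (*Igfbp6*), of 65 genes (0.416%), and 0 to 4 members with single libraries left out, 4 without HFA 4 (*Igf2*, *Igf2r*, *Igfbp5*, *Igfbp6*), where 17 pathway genes and 4058 of 15840 genes (25.6%) passed, a fit which leaves HFA 5 as the lone HFA library of the digit 3, assumed to vary like the others. In the order of levels, 2 to 4 neighbouring pairs passed with single libraries left out, against 2 in all libraries (4 without HFA 4). With the longest transcript as length, 3 passed and *Igfbp4* stood above *Igfbp6*, as it also did without HFA 2. *Igfbp7* stood above *Igfbp5* without CFA 1, CFA 3, CFA 4, HFA 1, HFA 3 or HFA 4. The order from *Igfbp3* down was the same in all these fits. With the 2 farthest libraries left out, 0 correlations passed.

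The log2 fold change changed sign for *Igfbp6* by limma voom (−0.11), with the second title digit (−0.23), the replicate block (−0.16), and the B and T cell (−0.14), adipocyte (−0.23) and muscle (−0.0061) covariates, and ran from −0.042 to 0.70 with single libraries left out. For *Ghr* it was −0.0033 by limma voom, −0.046 with upper-quartile scaling, −0.052 with no filter, −0.065 with the second digit, −0.18, −0.29 and −0.089 with the B and T cell, adipocyte and muscle covariates, −0.030 in the 7 libraries, and −0.14 to 0.17 with single libraries left out. *Igf1r* was positive with the epithelial (0.20), fibroblast (0.039) and brown fat (0.084) covariates, *Igfbp5* (0.052) and *Ctsd* (0.027) with the epithelial covariate, and *H19* negative (−0.52) with the adipocyte covariate. The cause was not tested. Of 685 alternative values, 636 kept their direction and their side of the threshold or, for counts, stayed within 1.5 times the count in all libraries. For the 4 pairs given by the other title digits, the correlation of deviations from the diet means was 0.298, −0.294, 0.111 and 0.410. Unmatched pairs were not compared in this way, so these values cannot decide whether those digits pair the libraries. With the replicate block 0 members and 0 genes passed.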

Other observations

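Ratios between members within a library, each on the RPKM scale and with no test, add the following. *Igf1* exceeded *Igf2* in every library, by 2.39 to 6.18 times in CFA and 3.39 to 4.14 times in 4 HFA libraries, and by 15.4 times in HFA 5. *Igf2r* exceeded *Igf1r* by 12.2 to 20.2 times in CFA and 16.1 to 28.0 times in HFA, and the ranges overlapped. *Igfbp5* exceeded *Igfbp3* by 2.89 to 7.42 times in CFA and 6.46 to 18.7 times in the HFA libraries other than HFA 5, where it was 1.25 times. *Igf1* was 0.0319 to 0.0452 of the summed binding proteins in CFA and 0.0258 to 0.0479 in HFA, so that this ratio did not separate the diets.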
